A study of Mus musculus with 65 samples.

Results

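The cytosolic ribosomal protein genes encode the protein components of the ribosome that works in the cytosol. Members were taken by gene symbol: protein-coding mouse genes named Rpl or Rps with a number, the P stalk genes Rplp0, Rplp1 and Rplp2, and Rpsa and Fau. Pseudogenes, ribosomal S6 kinases and mitochondrial ribosomal proteins were left out. The rule for symbols used no measured value. Of 89 symbols that met it, 81 had an annotated Ensembl transcription start site (TSS) within 1000 bp of the gene start, out of 18206 protein-coding genes paired in the same way and 31995 TSSs in all. The choice of TSS did use measured values for the 15 members with more than 1 TSS in reach. For these the TSS with the highest mean level over the inhibitor libraries was taken. The background of all TSSs was not picked in this way. The 81 were 45 large-subunit genes, 33 small-subunit genes and the 3 P stalk genes. They included 8 paralogues or retrogenes of another member (Rpl3l, Rpl7l1, Rpl10l, Rpl22l1, Rpl36al, Rpl39l, Rps23rg1 and Rps27rt), and the other 73 are called canonical here. The distance rule left 8 symbols unpaired: Rpl13a, Rpl17, Rpl22, Rpl32l, Rpl36, Rpl37rt, Rps10 and Rps27l.

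Each ribosome needs equal numbers of nearly all of its proteins, and growing cells make them from a set of short, intron-containing genes that RNA polymerase II transcribes at high rates. Many of these genes start transcription at a cytosine inside a run of pyrimidines, the terminal oligopyrimidine (TOP) start that links translation of their mRNAs to nutrient signalling through mTOR. Embryonic stem cells divide fast and depend on this supply, and processed copies of ribosomal protein mRNAs are scattered through mammalian genomes.

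The study measured how chromatin reopens after DNA replication in mouse E14TG2a embryonic stem cells, a feeder-independent line kept here on gelatin in serum and LIF. In repli-ATAC-seq, cells took up 20 uM of the thymidine analogue EdU for 10 min, open chromatin was cut with the Tn5 transposase, and fragments carrying EdU were captured. Cells were collected at once (nascent) or after 30 min, 1 h or 2 h of chase with 10 uM thymidine. A steady-state ATAC-seq group had no such capture. In the inhibitor experiment, cells received DMSO (the vehicle), DRB or triptolide for 2 h before EdU, and libraries were made from captured EdU fragments (EdU fraction) and from the supernatant (unbound fraction), 3 per group. DRB inhibits CDK9, the kinase that releases paused polymerase into elongation, and triptolide inhibits XPB, the TFIIH subunit that opens promoter DNA for initiation. The 12 groups of the inhibitor experiment were therefore nascent or 2 h, by DMSO, DRB or triptolide, by EdU or unbound fraction. All were of the same line and all were labelled with EdU. The sources used here state neither the drug concentrations nor whether a drug was present during the chase. A further experiment added 100 EdU-labelled Drosophila S2 cells as a spike-in (nascent and 2 h, 2 libraries each). Peak lists, 1 combined list per group, covered the time series, the steady state and ChIP-seq of RNA polymerase II phosphorylated on Ser5 (S5P), the form at and just after initiation. The labels do not say which libraries were separate cultures, so the p-values below measure the spread between these libraries, which may be technical.

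Starts are shown for 10 members because the results concern their promoters. Sequences are RefSeq promoters of build GRCm38.p6, from 100 bases before the start to 20 after it, in the direction of transcription. Of the 81 members, 63 were in the promoter table and 55 matched their paired TSS. Capitals mark 4 features searched by letters: CCGGAAG (the core bound by ETS family factors), the palindrome bound by ZBTB33 (Kaiso), TATAA (these on both strands, overlaps allowed) and a run of at least 8 pyrimidines within 20 bases of the start. Fau (chr19:6057847-6057966, plus strand) and Rpl28 (chr7:4792865-4792984, plus) show the pyrimidine run alone. Rpl38 (chr11:114668480-114668599, plus) and Rps6 (chr4:86857348-86857467, minus) join it to CCGGAAG, and Rps6 also holds the ZBTB33 palindrome, the capitals in the middle of its line. Rpl26 (chr11:68901466-68901585, plus) and Rps28 (chr17:33824543-33824662, minus) show the same palindrome close to the start. Rps27 (chr3:90213629-90213748, minus) and Rpl10 (chrX:74270716-74270835, plus) hold TATAA, in Rpl10 just after the start. The paralogues Rpl3l (chr17:24727726-24727845, plus) and Rpl10l (chr12:66284382-66284501, minus) hold none of the 4.
Fau: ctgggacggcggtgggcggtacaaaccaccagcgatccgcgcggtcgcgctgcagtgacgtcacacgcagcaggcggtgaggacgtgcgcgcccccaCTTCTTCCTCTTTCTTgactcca
Rpl28: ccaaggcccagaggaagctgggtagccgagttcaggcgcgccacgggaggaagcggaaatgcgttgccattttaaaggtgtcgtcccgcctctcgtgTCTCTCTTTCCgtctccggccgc
Rpl38: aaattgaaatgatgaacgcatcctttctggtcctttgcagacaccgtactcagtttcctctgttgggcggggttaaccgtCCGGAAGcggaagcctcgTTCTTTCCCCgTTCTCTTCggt
Rps6: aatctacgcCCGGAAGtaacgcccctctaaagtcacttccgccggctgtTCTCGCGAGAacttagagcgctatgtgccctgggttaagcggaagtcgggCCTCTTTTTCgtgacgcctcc
Rpl26: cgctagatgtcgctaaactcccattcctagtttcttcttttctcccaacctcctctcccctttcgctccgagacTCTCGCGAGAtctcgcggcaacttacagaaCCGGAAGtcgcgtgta
Rps28: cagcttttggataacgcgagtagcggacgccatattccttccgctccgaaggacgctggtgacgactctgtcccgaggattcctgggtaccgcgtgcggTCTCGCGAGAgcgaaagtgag
Rps27: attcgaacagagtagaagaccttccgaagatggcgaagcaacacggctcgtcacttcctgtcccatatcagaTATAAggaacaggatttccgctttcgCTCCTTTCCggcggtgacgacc
Rpl10: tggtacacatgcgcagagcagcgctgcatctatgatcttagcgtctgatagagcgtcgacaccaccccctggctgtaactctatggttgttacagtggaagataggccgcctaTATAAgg
Rpl3l: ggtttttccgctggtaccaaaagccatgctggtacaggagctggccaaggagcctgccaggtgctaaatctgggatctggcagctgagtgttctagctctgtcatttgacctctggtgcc
Rpl10l: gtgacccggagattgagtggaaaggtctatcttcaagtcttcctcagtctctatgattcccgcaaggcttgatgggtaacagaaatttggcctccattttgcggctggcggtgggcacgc

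Pyrimidine-rich starts were more frequent among the members than among all coding genes in the table, each represented by its first listed promoter. A run of at least 8 pyrimidines near the start occurred in 23 of 55 members (41.8%) and in 15.9% of 17492 promoters of the same length. A first base of C followed by at least 4 pyrimidines occurred in 9 members (16.4%) and in 2.17% of promoters. CCGGAAG was present in 17 members (30.9%) against 11.9% of promoters, and the ZBTB33 palindrome in 5 (9.09%) against 0.715%. TATAA was found in 15 members (27.3%) and in 22.8% of promoters, and GGGCGG, the core bound by Sp1, in 31 (56.4%) against 46.3%. The YY1 core AAGATGGC was in 5 members (9.09%) against 3.22%, the E-box CACGTG in 2 (3.64%) against 7.90%, and the NRF1 palindrome in 1 (1.82%) against 1.32%. The median GC content was 56.3% in both sets, whereas the median number of CpG dinucleotides per 100 bases was 7.0 in the members and 4.33 in all promoters. These are matches of letters in a fixed window, over both strands for the named cores, and not measured binding sites. A member's promoter was the one nearest its paired TSS, so the sets were not chosen alike. The background includes inactive genes, and no background of active promoters is given for these shares.

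Values below are in the reads-per-million unit (RPM), in 1 kb windows, taken back from the deposited log2(RPM + 1) values, so levels of different genes refer to the same length. Between 1.30 M and 5.55 M reads (M, mega) fell in windows of an EdU library, so a member TSS typically held 2 to 20 reads, and unbound libraries held 2.35 M to 14.4 M. Differences are on the log2(RPM + 1) scale, which understates the change of low windows. A member was called lower or higher where limma's moderated test gave a Benjamini-Hochberg adjusted p under 0.05 over all windows tested. Each main count below is set beside the percentage of all windows called in that direction. Counts under other scalings, filters, windows, thresholds or sets of libraries are given without that percentage, which can differ from that of the main fit. TSSs with an S5P peak within 1000 bp were used as a second, more active background. All 81 members passed the filter on low values. In these bulk libraries, a window open in fewer cells and a window less open in each cell cannot be told apart. Of the marker genes, 9 of 10 of embryonic stem cells had a TSS level above the median coding gene in 2 h DMSO EdU libraries. The count was 2 of 10 for fibroblast, 2 of 8 for primitive endoderm, 2 of 6 for trophectoderm and 4 of 7 for neural and germ layer markers. Other gene starts shared the TSS window of 13 members, and these cannot be separated from the member. Examples are Mrpl49 beside Fau, Lrsam1 beside Rpl12, Mgat2 beside Rpl36al and Pidd1 beside Rplp2. Med22 lies beside Rpl7a, Rnf151 beside Rps2 and Rab13 beside Rps27. Reads from members and from their processed copies elsewhere may also be misassigned, since the mapping filter is not stated in the sources used here.

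In DMSO-treated cells, ribosomal protein promoters were open on nascent DNA and, in the values as deposited, more so 2 h later. The median over the 81 TSSs was 3.03 ± 0.15 RPM in nascent EdU libraries (SD, n = 3) and 5.41 ± 0.71 RPM at 2 h, beside 1.61 ± 0.11 and 3.22 ± 0.17 RPM for all coding genes. Limma called 36 of 81 members (44.4%) higher at 2 h and 0 lower, where 31.2% of all TSSs and 61.5% of TSSs with S5P were called higher. The members' median log2 difference was 0.75, beside 0.34 for all TSSs. The libraries did not overlap for 47 members, all higher at 2 h, and for 37.6% of all TSSs in that direction. The count depended on the scaling of the libraries. With libraries centred on the median TSS, 11 members were higher and 2 lower. Scaled to background windows (windows with a read and away from all listed peaks), 68 and 0 were. Promoters without a listed peak were not left out of these windows. With limma-voom on recovered reads, 4 and 4 were. The all-TSS median moved to -0.08, 0.72 and -0.42 with these scalings, while the members' median stayed 0.34 to 0.55 above it and was itself -0.08 with limma-voom. Without 2 h DMSO EdU replicate 1, 22 members were called higher.

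The members spanned a wide range of openness at 2 h. In DMSO the level ran from 0.314 RPM at Rps27rt, a retrogene copy of Rps27, to 26.0 RPM, and 14 members reached 10 RPM. Rpl37, Rps21, Rpl27, Rpl15 and Rps23rg1 were among those with the highest levels. Rps23rg1, an expressed retrogene of Rps23, rose from 2.88, 1.51 and 3.97 to 15.3, 11.2 and 14.7 RPM (difference 2.00), and its groups did not overlap. Rpl39, which lines the peptide exit tunnel, rose by 1.80, Rpl24 by 1.65 and Rpl37 by 1.54. By role, 23 of 45 large-subunit, 11 of 33 small-subunit and 2 of 3 P stalk genes were higher, including 4 of 8 paralogues.

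**Figure D1:**
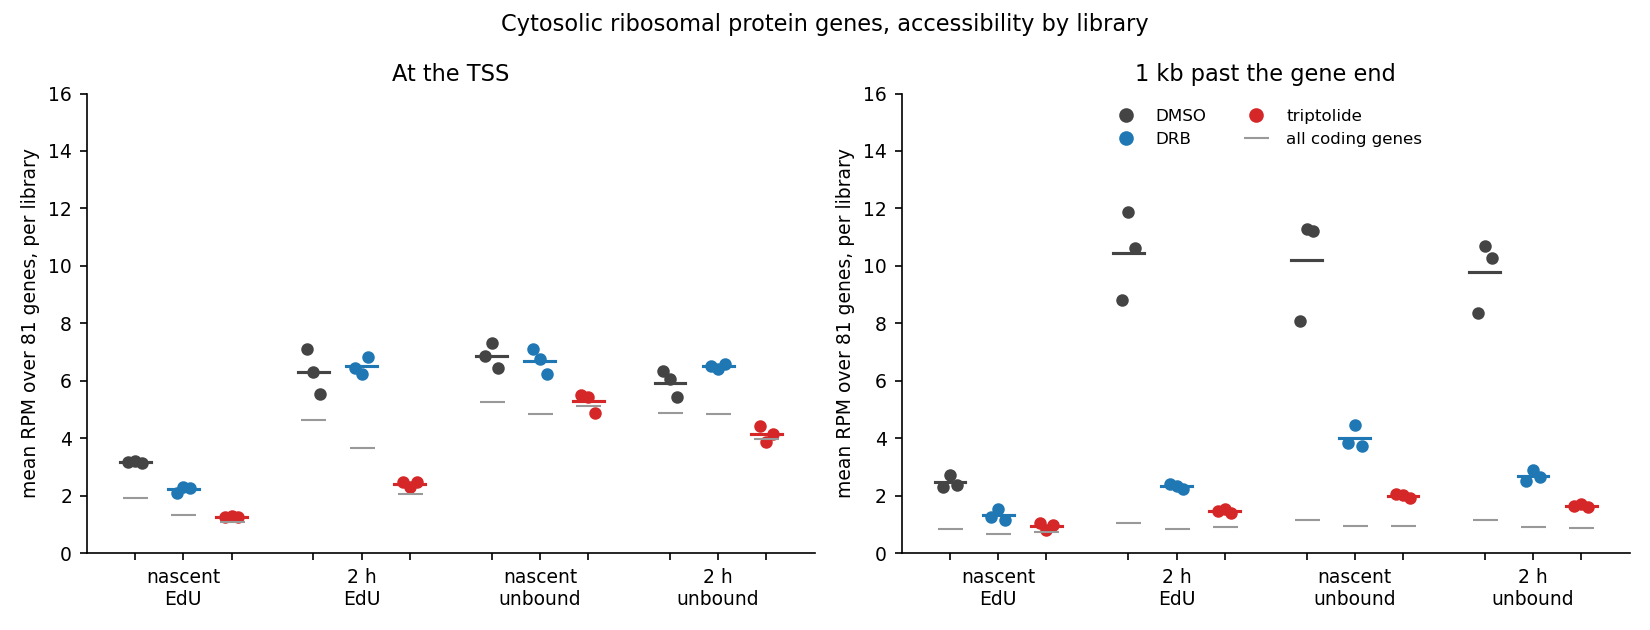
Mean level over the 81 ribosomal protein genes (RPM, linear axis from 0) in each library of the inhibitor experiment, at the TSS window and at the window 1000 bp past the gene end; dots are libraries, bars are group means of 3 libraries, and grey dashes are the mean over all coding genes. In the EdU fraction at 2 h, triptolide libraries lie below DMSO at both places, and DRB libraries lie below DMSO only past the gene end.

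The spike-in experiment gave a second set of libraries for the same time comparison, over 5 kb regions around the TSS. In it 37 of 81 members (45.7%) were called higher at 2 h and 0 lower, with 30.1% of all TSSs and 60.3% of TSSs with S5P called higher. The members' median difference was 1.11 against 0.79 for all TSSs. Rps27a, which is made as a fusion with ubiquitin, had log2 values of 4.51 and 5.14 in the nascent libraries and 7.18 and 7.44 at 2 h. The groups did not overlap, and Rps27a rose by 2.49 (SE 0.52; limma adjusted p = 0.000118). Rpl39l rose by 2.23, Rpl41 by 2.03 and Rplp1 by 2.02. Rpl3l, a muscle isoform of Rpl3, had values of 5.12 and 6.02 in nascent and 5.35 and 5.25 at 2 h, with the groups overlapping. With libraries centred on the median TSS, 37 were higher and 6 lower. With 2 libraries per group the count was unstable: it was 0 without either 2 h library, 78 without nascent replicate 2, 0 without the filter on low values and 1 with a replicate block. How the Drosophila reads entered these values is not stated in the sources used here.

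Peaks were already listed at most member TSSs on nascent DNA. In the authors' deposited lists, which give positions only, 67 of 81 members (82.7%) had a nascent peak within 1000 bp, against 36.1% of all TSSs. The 30 min list held 75 (92.6%; all TSSs 42.8%), the 1 h list 72 (88.9%; 45.9%), the 2 h list 78 (96.3%; 50.8%) and the steady-state list 78 (96.3%; 56.9%). S5P peaks lay at 74 member TSSs (91.4%, Wilson 95% interval 83.2 to 95.8%), against 18.5% of all TSSs, 43 of 69 mitochondrial ribosomal protein genes (62.3%) and 19 of 39 proteasome genes (48.7%). The interval covers counting error over genes only. The 7 members without S5P were Rpl10l, Rpl18, Rpl19, Rpl39l, Rpl3l, Rps2 and Rps27rt, so 4 of the 8 paralogues were among them.

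The first list with a peak was later than nascent for 13 members. Rpl29, Rpl37a, Rpl39l, Rpl3l, Rpl5, Rps15a, Rps2, Rps23rg1 and Rps3 first had one at 30 min, Rpl10l and Rpl39 at 1 h, and Rps4x and Rps7 at 2 h. Rps27rt had none in any list. In 8 members a peak present in an earlier list was missing from a later one. The lists grew from 47341 peaks (nascent) to 106983 (2 h) and 166636 (steady state), and their depth is unknown, so a later first list is not a measured delay. The S5P peaks at member TSSs had a median width of 800 bp, against 450 bp at all TSSs with an S5P peak.

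With triptolide, ribosomal protein promoters were less open on nascent DNA. The median over the 81 TSSs was 1.01 ± 0.09 RPM in nascent triptolide EdU libraries (SD, n = 3), against 3.03 ± 0.15 RPM in DMSO. Limma called 35 members (43.2%) lower and 0 higher, where 11.6% of all TSSs and 30.0% of TSSs with S5P were called lower. The members' median difference was -0.83, against -0.23 for all TSSs and -0.67 for TSSs with S5P. The libraries did not overlap for 45 members, all lower with triptolide, and for 22.2% of all TSSs in that direction. Centred on the median TSS, 18 members were called lower. With limma-voom, 2 were, although the members' median then lay 0.67 below that of all TSSs. Without nascent triptolide EdU replicate 2, 23 were lower.

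The 5 largest nascent triptolide differences were at large-subunit genes. Rpl35 (chr2:39001581-39005131, minus strand), which sits at the mouth of the exit tunnel, had 5.77, 6.56 and 4.76 RPM in DMSO and 2.78, 0 and 0.720 RPM with triptolide. The groups did not overlap, and Rpl35 fell by 1.83 on the log2 scale (SE 0.31; limma adjusted p = 1.04e-05). Rpl15 fell from 8.65, 4.54 and 6.08 RPM to 1.74, 0.453 and 1.26 RPM (difference -1.80), Rpl6 differed by -1.80, the paralogue Rpl36al by -1.71 and Rpl34 by -1.50, all called lower. By role, 20 of 45 large-subunit genes (median -0.90), 13 of 33 small-subunit genes (-0.81) and 2 of 3 P stalk genes were lower. Of the 8 paralogues 1, Rpl36al, was called lower (median -0.26), a share near that of all TSSs. The Rpl36al window also holds the start of Mgat2.

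Among members with well-known separate roles, the call differed from gene to gene. Rplp1 and Rplp2, the acidic stalk proteins that recruit translation factors, fell by 1.38 and 1.17, whereas Rplp0, the scaffold that holds them, differed by -0.35 (limma adjusted p = 0.547). Rpsa, the laminin receptor precursor, fell by 1.40, Rps27a by 1.34 and Rps19, which is mutated in Diamond-Blackfan anaemia, by 1.38. Rps24, another gene of that disease, fell by 1.17. Rpl5 and Rpl11 can bind Mdm2 together with a small ribosomal RNA. Rpl5 fell by 1.16, and Rpl11 differed by -0.76 (limma adjusted p = 0.113). Rpl10, which joins the large subunit last, fell by 1.22. Fau, Rpl3, Rpl38, Rpl39, Rps3, Rps4x, Rps6 and Rps12 were not called, with differences from -0.97 (Rpl38) to 0.01 (Rpl39).

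With DRB, few of these promoters were called on nascent DNA. The median over the members was 2.11 ± 0.21 RPM (SD, n = 3) in nascent DRB EdU libraries. Limma called 6 members (7.41%) lower and 0 higher, against 3.37% of all TSSs and 7.45% of TSSs with S5P, so the share was near that of active promoters. The members' median difference was -0.34 and that of all TSSs -0.18. Rplp1 had 6.34, 2.52 and 3.44 RPM in DMSO and 0, 0 and 1.21 RPM with DRB, and fell by 1.90 (SE 0.35; limma adjusted p = 0.000426). Its groups did not overlap. Rpl28 fell by 1.39, Rps15 by 1.36, Rpl27 by 1.23, Rps27a by 1.14 and Rpl36al by 1.08. Without nascent DMSO EdU replicate 2 there were 2 such calls. DRB and triptolide were both compared with the same DMSO libraries.

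Triptolide and DRB were then compared directly on nascent DNA. Limma called 4 members lower with triptolide than with DRB, against 0.577% of all TSSs and 1.70% of TSSs with S5P. Among them were Rpl34 (-1.34), Rpl21 (-1.32) and Rpl15 (-1.24). In this fit 32 members were lower at an unadjusted p under 0.05, and no share of all TSSs is given for that threshold. With libraries centred on the median TSS or scaled to background windows, 0 members were called lower. Without nascent DRB EdU replicate 2 there was 1 call, and without nascent triptolide EdU replicate 1 or 2 there were 2.

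At 2 h, triptolide-treated cells still had ribosomal protein promoters less open than DMSO-treated cells, and with DRB few members differed from DMSO. The median over the members was 5.41 ± 0.71 RPM with DMSO, 5.82 ± 0.15 RPM with DRB and 2.2 ± 0.09 RPM with triptolide (SD, n = 3). For all coding genes it was 3.22, 2.71 and 1.53 RPM. With triptolide, limma called 51 members (63.0%) lower, against 28.6% of all TSSs and 63.4% of TSSs with S5P, so the share was that of active promoters. The members' median difference was -1.11, against -0.29 for all TSSs and -1.04 for TSSs with S5P. The libraries did not overlap for 65 members, lower with triptolide, and for 37.5% of all TSSs. Only Rpl4 was called higher (2.72% of all TSSs). Centred on the median TSS, 32 members were lower and 2 higher; with limma-voom, 12 and 4. The all-TSS median moved to 0.07 and 0.31 with these, and the members' median lay 0.81 and 0.71 below it.

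Rpl10 was among the members with the largest differences called lower. Rpl10 (chrX:74270816-74273135, plus strand) had 3.98, 4.32 and 4.70 RPM with DMSO and no read in any of the 3 triptolide libraries. The groups did not overlap. Rpl10 was called lower (limma adjusted p = 9.4e-08), and because the triptolide group was at 0 no fold is given. Rpl35 fell by 1.91.

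All 3 P stalk genes were lower at 2 h. Rplp0 (chr5:115559467-115563729, plus strand) had 8.28, 10.8 and 7.19 RPM with DMSO, 4.81, 5.97 and 7.54 RPM with DRB, and 1.73, 1.55 and 2.92 RPM with triptolide. Rplp2 had 8.28, 9.35 and 8.30 RPM, then 8.74, 5.97 and 8.70 RPM, then 2.59, 1.24 and 0.798 RPM in the same order. For both genes the triptolide libraries lay below all others, while DRB overlapped DMSO. The triptolide differences were -1.68 for Rplp0, -1.74 for Rplp1 and -1.98 for Rplp2 (SE 0.31; limma adjusted p = 7.08e-08). Across the subunits, 28 of 45 large-subunit (median -1.11) and 20 of 33 small-subunit genes (-1.06) were lower. Rpsa (-1.41), Rps27a (-1.57), Rps3 (-1.43), Rps19 (-1.31), Rps6 (-1.19), Rps24 (-1.20), Rpl5 (-1.21) and Rpl11 (-1.04) were among them. Fau (-0.49), Rpl3 (-0.47), Rpl38 (-0.49), Rpl39 (-0.78), Rps4x (-0.69) and Rps12 (-0.29) were not called.

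Of the 8 paralogues, 2 were called lower with triptolide at 2 h, a share near the 28.6% of all TSSs. Rpl10l, a testis-specific retrogene of Rpl10, had 3.98, 3.60 and 1.66 RPM with DMSO and 4.03, 2.48 and 4.25 RPM with triptolide at 2 h. Its groups overlapped, and the difference was 0.20. Rpl3l differed by 0.31 and Rps27rt by 0.57, neither called, and Rps27rt stayed at or under 1.44 RPM in every EdU library. Their counterparts Rpl10 and Rps27 were lower (Rps27 by -1.06), while Rpl3 was not called. The 2 called were Rpl36al (-1.66), beside -1.24 for Rpl36a, and Rps23rg1 (-0.83), beside 0.23 for Rps23, which was not called. Rpl7l1 (-0.82, beside -1.34 for Rpl7, called lower), Rpl39l (-0.82, beside -0.78 for Rpl39, not called) and Rpl22l1 (-0.60) were not called. The difference between paralogue and counterpart was not tested.

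Rpl4 and Rps12 were the members called higher with DRB at 2 h. Limma called 2 members higher and 1 lower, against 0.201% and 0.621% of all TSSs, and the members' median difference was 0.08. Rpl4 (chr9:64173387-64178562, plus strand), which lines the exit tunnel, had 2.15, 0.360 and 1.38 RPM with DMSO, 4.37, 6.34 and 5.80 RPM with DRB, and 3.74, 4.03 and 2.39 RPM with triptolide. The DMSO libraries were lowest and did not overlap either drug. Rpl4 rose by 1.57 with DRB (SE 0.34; limma adjusted p = 0.00534) and by 1.00 with triptolide (adjusted p = 0.0173). Rps12 (chr10:23785183-23787383, minus strand), a protein of the small-subunit head, had 3.37, 1.08 and 3.87 RPM with DMSO and 8.30, 8.21 and 6.38 RPM with DRB, and rose by 1.28 (adjusted p = 0.0489). The 1 lower call was lost without 2 h DMSO EdU replicate 1 or 2 or 2 h DRB EdU replicate 2.

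The difference between the drugs at 2 h was itself called for most members. Limma called 59 members (72.8%) lower with triptolide than with DRB and 0 higher, against 14.8% of all TSSs and 38.6% of TSSs with S5P. The members' median difference was -1.15, and that of all TSSs -0.23. The libraries did not overlap for 73 members, lower with triptolide, and for 28.5% of all TSSs. Rps3, which lines the mRNA entry channel, had 6.99, 7.09 and 10.4 RPM with DRB and 1.44, 0.931 and 1.06 RPM with triptolide. Rps3 fell by 2.08 (SE 0.34; limma adjusted p = 1.48e-06). Rpl10 differed by -1.99, Rplp2 by -1.84, Rpl7a by -1.83 and Rps9 by -1.82. Centred on the median TSS the count was 37, and with limma-voom 15, with 0 higher under both. By role, 33 large-subunit, 23 small-subunit and 3 P stalk genes were lower, including 2 of 8 paralogues.

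The recovery between nascent and 2 h was read within each treatment. With DRB, limma called 63 members (77.8%) higher at 2 h, against 35.1% of all TSSs and 70.2% of TSSs with S5P, with a median of 1.26 (all TSSs 0.44). Rpl27, near the exit tunnel of the large subunit, went from 2.36, 0 and 3.33 RPM to 12.7, 14.6 and 14.2 RPM and rose by 2.60. Rpl28, whose start lies in a pyrimidine run, rose by 2.33. With triptolide, 14 members (17.3%) were higher, against 14.1% and 27.2%, with a median of 0.54. Rpl21 rose by 1.54 and Rps23rg1 by 1.36. With limma-voom these counts were 6 and 0, and scaled to background windows 77 and 40. Without 2 h triptolide EdU replicate 2 the triptolide count was 6, and without nascent triptolide EdU replicate 1 or 2 it was 9.

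Whether the drug differences themselves changed over the chase was tested as an interaction. Limma called 0 members in either direction for triptolide, where 0.419% of all TSSs were called lower. For DRB it called 0 members, where 0.0134% of all TSSs were called higher. At an unadjusted p under 0.05, 3 members were higher and 7 lower for triptolide, and 14 higher and 1 lower for DRB. Those percentages are for adjusted p, so they are no background for the unadjusted counts, and none is given here.

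In the unbound fraction the members' median triptolide differences were -0.26 in nascent libraries and -0.38 at 2 h. Its member medians were 5.51, 6.03 and 4.55 RPM in nascent DMSO, DRB and triptolide libraries and 5.01, 5.81 and 3.55 RPM at 2 h. With triptolide, 11 members were lower in the nascent libraries (1.53% of all TSSs and 5.92% of TSSs with S5P). At 2 h, 24 were lower (12.2% and 29.4%) and Rpl24 higher (2.26% of all TSSs). The 2 h share of 29.6% was that of TSSs with S5P. Rps2, a protein of the mRNA entry channel, fell by 1.56, Rplp0 by 1.09 and Rplp1 by 1.06. Without nascent triptolide unbound replicate 3 the nascent count was 4, without nascent DMSO unbound replicate 2 it was 6, and without DMSO replicate 1 or triptolide replicate 2 it was 7.

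DRB moved single members of the unbound fraction in both directions. In nascent libraries 1 member was lower and Rpl36a higher (0.75), against 0.637% and 0.267% of all TSSs. At 2 h 2 members, including Rps2 (-1.09), were lower (0.713%), and Rpl24 (1.07), Rps23 (0.82), Rpl32 (0.79) and Rpl28 (0.60) were higher (0.769%). Between nascent and 2 h DMSO unbound libraries limma called 0 members, with 0 higher and 11 lower at an unadjusted p under 0.05. The 1 lower call in nascent libraries was lost without DMSO unbound replicate 2 or DRB unbound replicate 3.

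**Figure D2:**
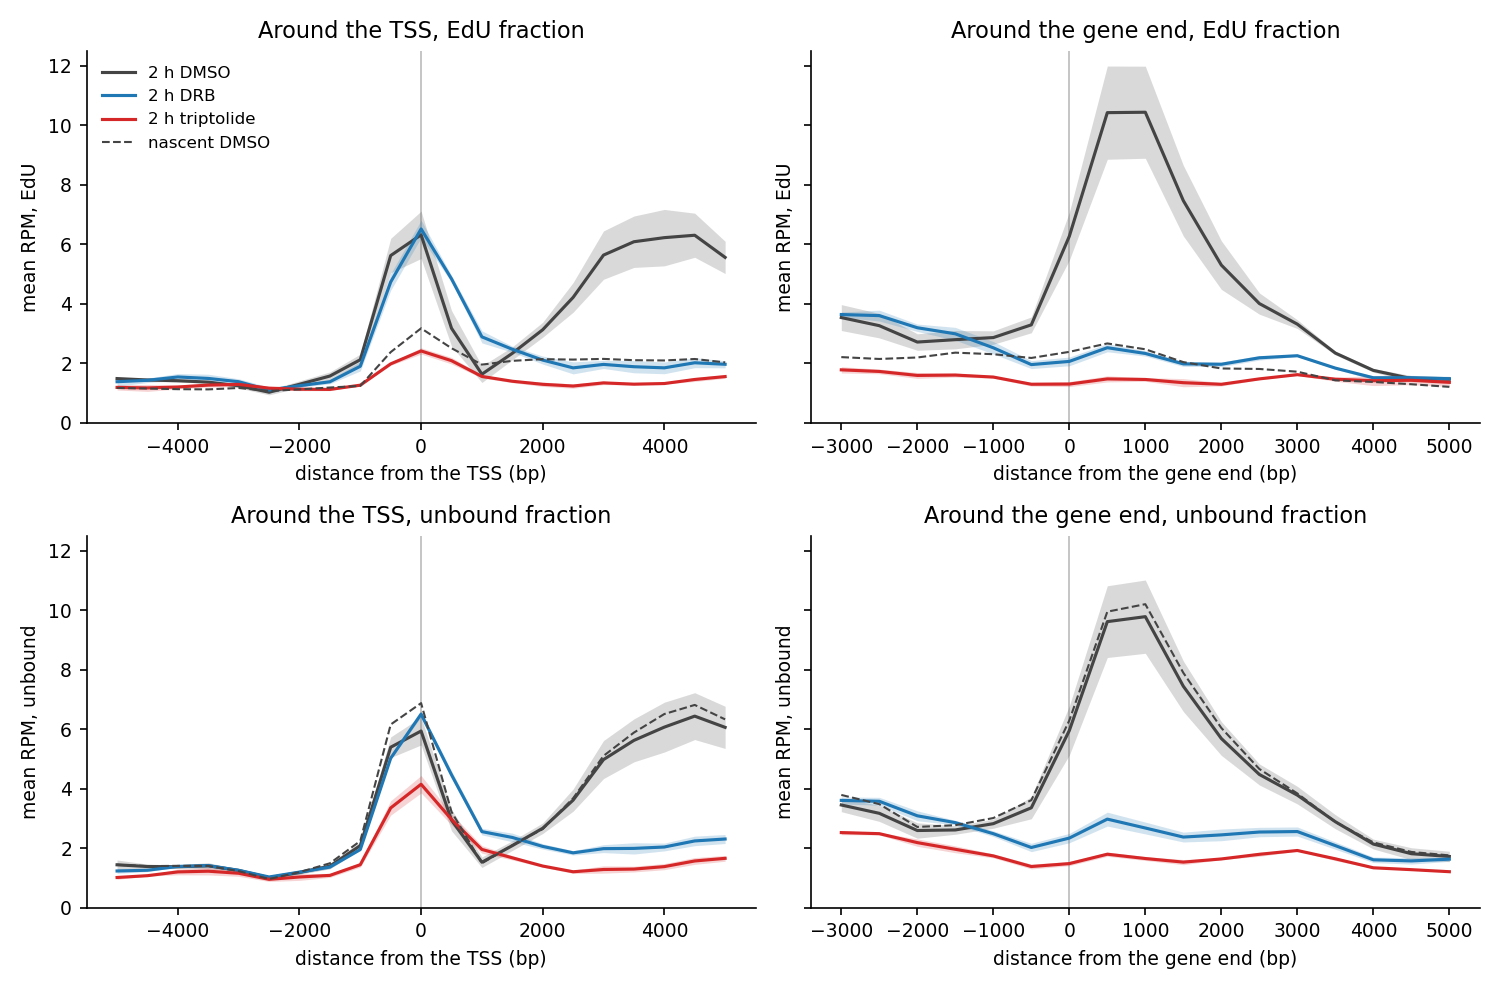
Mean level over the 81 genes (RPM, linear axis from 0) by distance from the TSS and from the gene end, in the EdU and unbound fractions at 2 h with DMSO, DRB or triptolide; bands are the SD of 3 libraries and the dashed line is nascent DMSO. In the EdU fraction DMSO libraries have 6.32 RPM at the TSS and 10.4 RPM 1000 bp past the end, where DRB and triptolide have 2.33 and 1.46 RPM; in the unbound fraction the 3 values past the end are 9.78, 2.68 and 1.66 RPM.

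Away from the start, the mean profile of the members had a second maximum behind the genes. In 2 h DMSO EdU libraries the mean was 6.32 ± 0.79 RPM at the TSS, 1.64 ± 0.28 RPM at 1000 bp inside the gene and 5.64 ± 0.81 RPM at 3000 bp. Aligned on RefSeq gene ends (median gene length 3137 bp), it was 2.87 RPM at 1000 bp before the end, 6.27 RPM at the end, 10.4 RPM at 1000 bp past it and 1.47 RPM at 5000 bp past it. With DRB the same positions had 2.52, 2.07, 2.33 and 1.49 RPM, and with triptolide 1.54, 1.31, 1.46 and 1.36 RPM. At 1000 bp inside the gene, DRB libraries had 2.89 RPM, 1.77 times the DMSO mean. The comparison at 1000 bp past the gene end was chosen after this profile was seen, so its size is described and the choice of place is not independent of it.

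In 2 h DMSO libraries, the chromatin behind ribosomal protein genes had a higher mean level than their promoters, and it was lower with both drugs. On nascent DMSO EdU DNA the order was the other way, with 2.47 RPM behind the genes and 3.18 RPM at the TSS. The mean over the members past the end was 10.4 ± 1.55 RPM with DMSO, 2.33 ± 0.09 RPM with DRB and 1.46 ± 0.06 RPM with triptolide in 2 h EdU libraries (SD, n = 3). The mean over all coding genes was 1.05, 0.841 and 0.895 RPM, that of mitochondrial ribosomal protein genes with DMSO 1.5 RPM and that of proteasome genes 1.07 RPM. With DRB, limma called 65 members (80.2%) lower and 0 higher, against 1.75% of all gene ends. With triptolide it called 69 (85.2%) lower and 1 higher, against 4.86% and 4.11%. In windows 2000 bp past the end the counts lower were 28 with DRB and 43 with triptolide. The percentages above are for the window at 1000 bp, and none is given for the window at 2000 bp. The members' median differences were -1.74 and -2.06, and those of all gene ends -0.06 and 0.00. In 2 h DMSO EdU libraries the median was 0.314 RPM over all gene ends and 8.25 RPM over the members. Many gene ends thus had little signal to lose, which limits these percentages and medians as a background. The same limit applies to the drug comparisons past the end in the other libraries below. No background of gene ends matched for level or S5P is given. The libraries did not overlap for 69 members with DRB and 75 with triptolide, lower with the drug, against 9.79% and 11.6% of gene ends. Both drugs were again set against the same DMSO libraries.

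Rpl3 (chr15:80077781-80083406, minus strand), which reaches the peptidyl transferase centre, had the highest level past its end. Its 2 h libraries held 50.9, 70.9 and 59.2 RPM with DMSO, 1.31, 2.61 and 2.61 RPM with DRB, and 2.88, 0.931 and 1.86 RPM with triptolide. The DMSO libraries lay far above both drugs, which overlapped each other. Rpl3 fell by 4.29 with DRB (SE 0.32; limma adjusted p = 2.24e-37) and by 4.45 with triptolide (adjusted p = 1.79e-40). At its TSS, by contrast, Rpl3 was not called with either drug.

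Rps9, Rps12, Rpl12 and Rpl27a followed. Rps9 (chr7:3703954-3706897, plus strand) had 21.2, 28.1 and 24.1 RPM with DMSO, 2.18, 1.49 and 1.16 RPM with DRB, and 0.288, 0 and 0.532 RPM with triptolide. Rps12 had 19.9, 26.3 and 28.2 RPM, then 0.437, 2.24 and 1.45 RPM, then 1.15, 0.931 and 1.06 RPM in the same order. For both genes DMSO stood apart from the drugs. The DRB differences were -3.96 for Rpl12, -3.61 for Rpl27a, -3.50 for Rps12 and -3.29 for Rps9. The triptolide differences were -4.33 for Rps9, -3.64 for Rps12, -3.64 for Rpl27a and -3.32 for Rpsa.

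Members of the panel with well-known separate roles were lower past the end with both drugs. Differences with DRB and triptolide were -2.47 and -2.83 for Rplp0, -2.12 and -2.80 for Rplp1, -2.91 and -2.58 for Rplp2. They were -1.54 and -1.42 for Fau, -2.55 and -2.63 for Rps6, -2.33 and -2.85 for Rps3, -2.67 and -3.00 for Rpl10, and -1.61 and -1.84 for Rpl11. Rps4x, the X-linked small-subunit gene, had 1.23, 4.68 and 2.49 RPM with DMSO and no read in the 3 DRB libraries. Rpl34 likewise had 0.920, 2.88 and 2.77 RPM with DMSO and no read in the 3 triptolide libraries. By role, 36 of 45 large-subunit, 26 of 33 small-subunit and 3 of 3 P stalk genes were lower with DRB, and 39, 27 and 3 with triptolide.

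Few paralogues were called past the end. With DRB 0 of 8 were called lower (median -0.09, against -1.82 over the canonical genes, of which 65 of 73 were lower). With triptolide Rpl7l1 (-1.32) was lower and Rps23rg1 higher. Rpl7l1 held 9.81, 7.91 and 10.2 RPM with DMSO and 11.4, 8.58 and 8.41 RPM with DRB, overlapping, and 2.59, 3.10 and 3.72 RPM with triptolide. Rpl3l held 11.3, 6.83 and 5.53 RPM with DMSO and 9.18, 7.09 and 10.1 RPM with DRB. The nearest TSS of any gene lies 272 bp from the centre of the Rpl7l1 window and 501 bp from that of Rpl3l, so these windows include other starts. Rps23rg1 held 0.306, 0 and 0 RPM with DMSO and 1.15, 0.931 and 1.60 RPM with triptolide.

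Canonical genes that were not called with DRB included Rpl18, Rpl41, Rps14, Rps16, Rps21 and Rps27. Those not called with triptolide were Rpl21, Rps13, Rps14, Rps16 and Rps27. Between the drugs at 2 h, 5 members were lower with triptolide than with DRB (1.10% of gene ends), with Rpl7l1 (-1.33), Rps23 (-1.23) and Rpl41 (-1.14) among them. Limma called 0 members between the drugs in nascent EdU libraries, with 1 higher and 7 lower at an unadjusted p under 0.05.

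**Figure D3:**
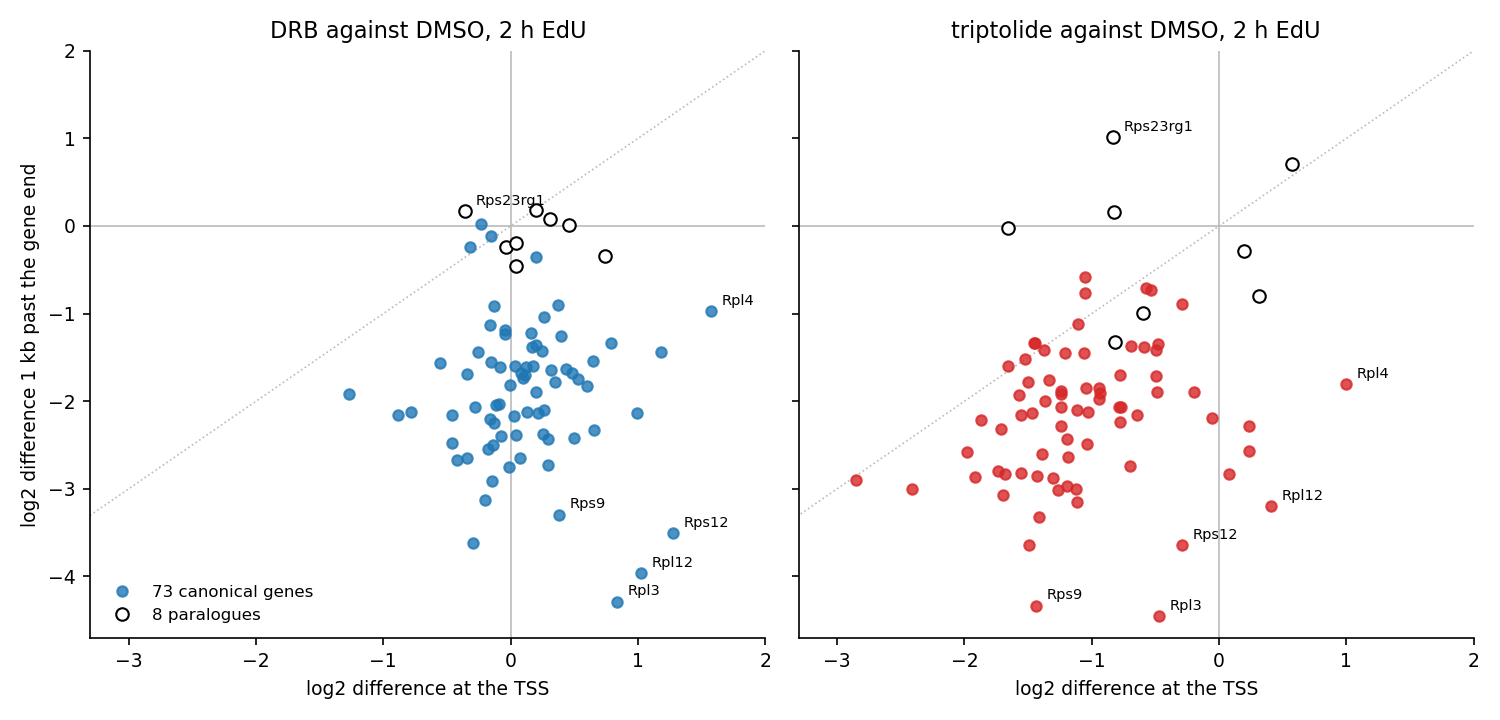
Log2 difference from DMSO in 2 h EdU libraries at the TSS (horizontal) and 1000 bp past the gene end (vertical) for each of the 81 genes, with DRB (left) and triptolide (right); filled points are the 73 canonical genes, open points the 8 paralogues, and the dotted line marks equal differences. With DRB most filled points lie near 0 horizontally and below the line; with triptolide they lie below 0 on both axes.

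The decrease was also called where no other start lay nearby. For 49 members no TSS of any gene lay within 2000 bp of the window centre, and of these 43 were lower with DRB and 41 with triptolide, against 1.51% and 3.10% of such gene ends. An S5P peak lay past the end of 66 members. Of them 58 were lower with DRB (median -1.98) and 63 with triptolide (-2.16). Of the 15 members without it, 7 (-0.45) and 6 (-0.80) were. Of other gene lists, those lower with DRB were 9 of 18 TOP mRNA or ribosome-bound genes (median -1.09), 4 of 23 ribosome biogenesis and polymerase I genes, 2 of 69 mitochondrial ribosomal protein genes, 1 of 39 proteasome genes and 0 of 13 regulators.

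The drop behind the gene was compared with the change at the start of the same gene. With DRB in 2 h EdU libraries, the difference past the end was lower than that at the TSS in 46 members (0.601% of genes), with a median of -1.93. Rpl3 led with -5.12 (SE 0.52; limma adjusted p = 5.75e-08), then Rpl12 (-4.99), Rps12 (-4.78), Rps9 (-3.67) and Rpl27a (-3.32). With triptolide it was lower in 33 members (1.71% of genes, median -0.93) and higher in Rps23rg1 and Rpl36al (28.7%), while the median over all genes was 0.62. In the unbound fraction with DRB it was lower in 66 members (5.00%). Without 2 h DMSO EdU replicate 2 the DRB count in EdU was 27.

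The open chromatin behind the genes rose over the chase in DMSO-treated cells. In DMSO EdU libraries the mean over the members rose from 2.47 ± 0.22 RPM in nascent DNA to 10.4 ± 1.55 RPM at 2 h (SD, n = 3). Limma called 64 members (79.0%) higher at 2 h and 0 lower, against 4.68% of gene ends, with a median of 1.70. The libraries did not overlap for 69 members, higher at 2 h, against 10.3%. Rpsa (chr9:120127766-120132369, plus strand) held 0, 3.03 and 1.59 RPM in nascent libraries and 16.6, 16.5 and 19.6 RPM at 2 h, and rose by 3.08 (SE 0.36; limma adjusted p = 1.32e-14). Rpl10 rose by 2.57, Rpl10a by 2.55, Rps9 by 2.51 and Rpl3 by 2.43. With DRB 11 members were higher at 2 h (4.91%), including Rpl3l (1.69). With triptolide 3 members were higher (0.963%), Rpl4 (1.43) and Rpl3l (1.25) among them, and 1 of these calls was left without any single 2 h triptolide library.

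Relative to the start of the same gene, the gain past the end over the chase in DMSO was larger in 30 members (1.69% of genes) and smaller in Rps23rg1 and Rpl39l (32.1%). Rpl4 (2.83), Rpsa (2.77), Rpl19 (2.64), Rpl12 (2.13) and Rps23 (2.05) led. The count was 17 without 2 h DMSO EdU replicate 2 and 19 without replicate 3.

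On nascent DNA the level behind the genes was below that of 2 h DMSO libraries in every treatment, and fewer members passed. The means were 2.47, 1.32 and 0.949 RPM with DMSO, DRB and triptolide. Over all coding genes they were 0.833, 0.651 and 0.731 RPM in the same order. Limma called 13 members lower with triptolide (0.728% of gene ends) and 7 with DRB (0.552%). Rpl3 went from 7.50, 13.6 and 10.6 RPM with DMSO to 1.42, 0 and 2.72 RPM with DRB and 1.74, 0.905 and 1.26 RPM with triptolide, and fell by 2.44 and 2.31. Rps12 fell by 2.22 and 2.12, and Rps9 by 1.60 and 1.79. Without nascent DMSO EdU replicate 2 the counts were 5 and 3. Without nascent triptolide EdU replicate 1 or 2 the first was 8 or 7, and without nascent DRB EdU replicate 2 or 3 the second was 3 or 11.

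The unbound fraction had the same second maximum at both times. The mean over the members past the end was 10.2 ± 1.82, 4.00 ± 0.40 and 2.00 ± 0.07 RPM in nascent DMSO, DRB and triptolide unbound libraries and 9.78 ± 1.23, 2.68 ± 0.20 and 1.66 ± 0.07 RPM at 2 h (SD, n = 3). With triptolide 72 members were lower in nascent (5.13%) and 74 in 2 h libraries (8.81%). With DRB 66 (4.57%) and 70 (6.39%) were. Rpl3 held 38.1, 60.0 and 53.3 RPM in nascent DMSO, 12.2, 17.8 and 10.6 RPM in DRB and 4.64, 3.63 and 4.18 RPM in triptolide unbound libraries, and no library of one treatment overlapped another. Between nascent and 2 h DMSO unbound libraries, limma called 0 members, and 0 passed an unadjusted p of 0.05 in either direction.

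**Figure D4:**
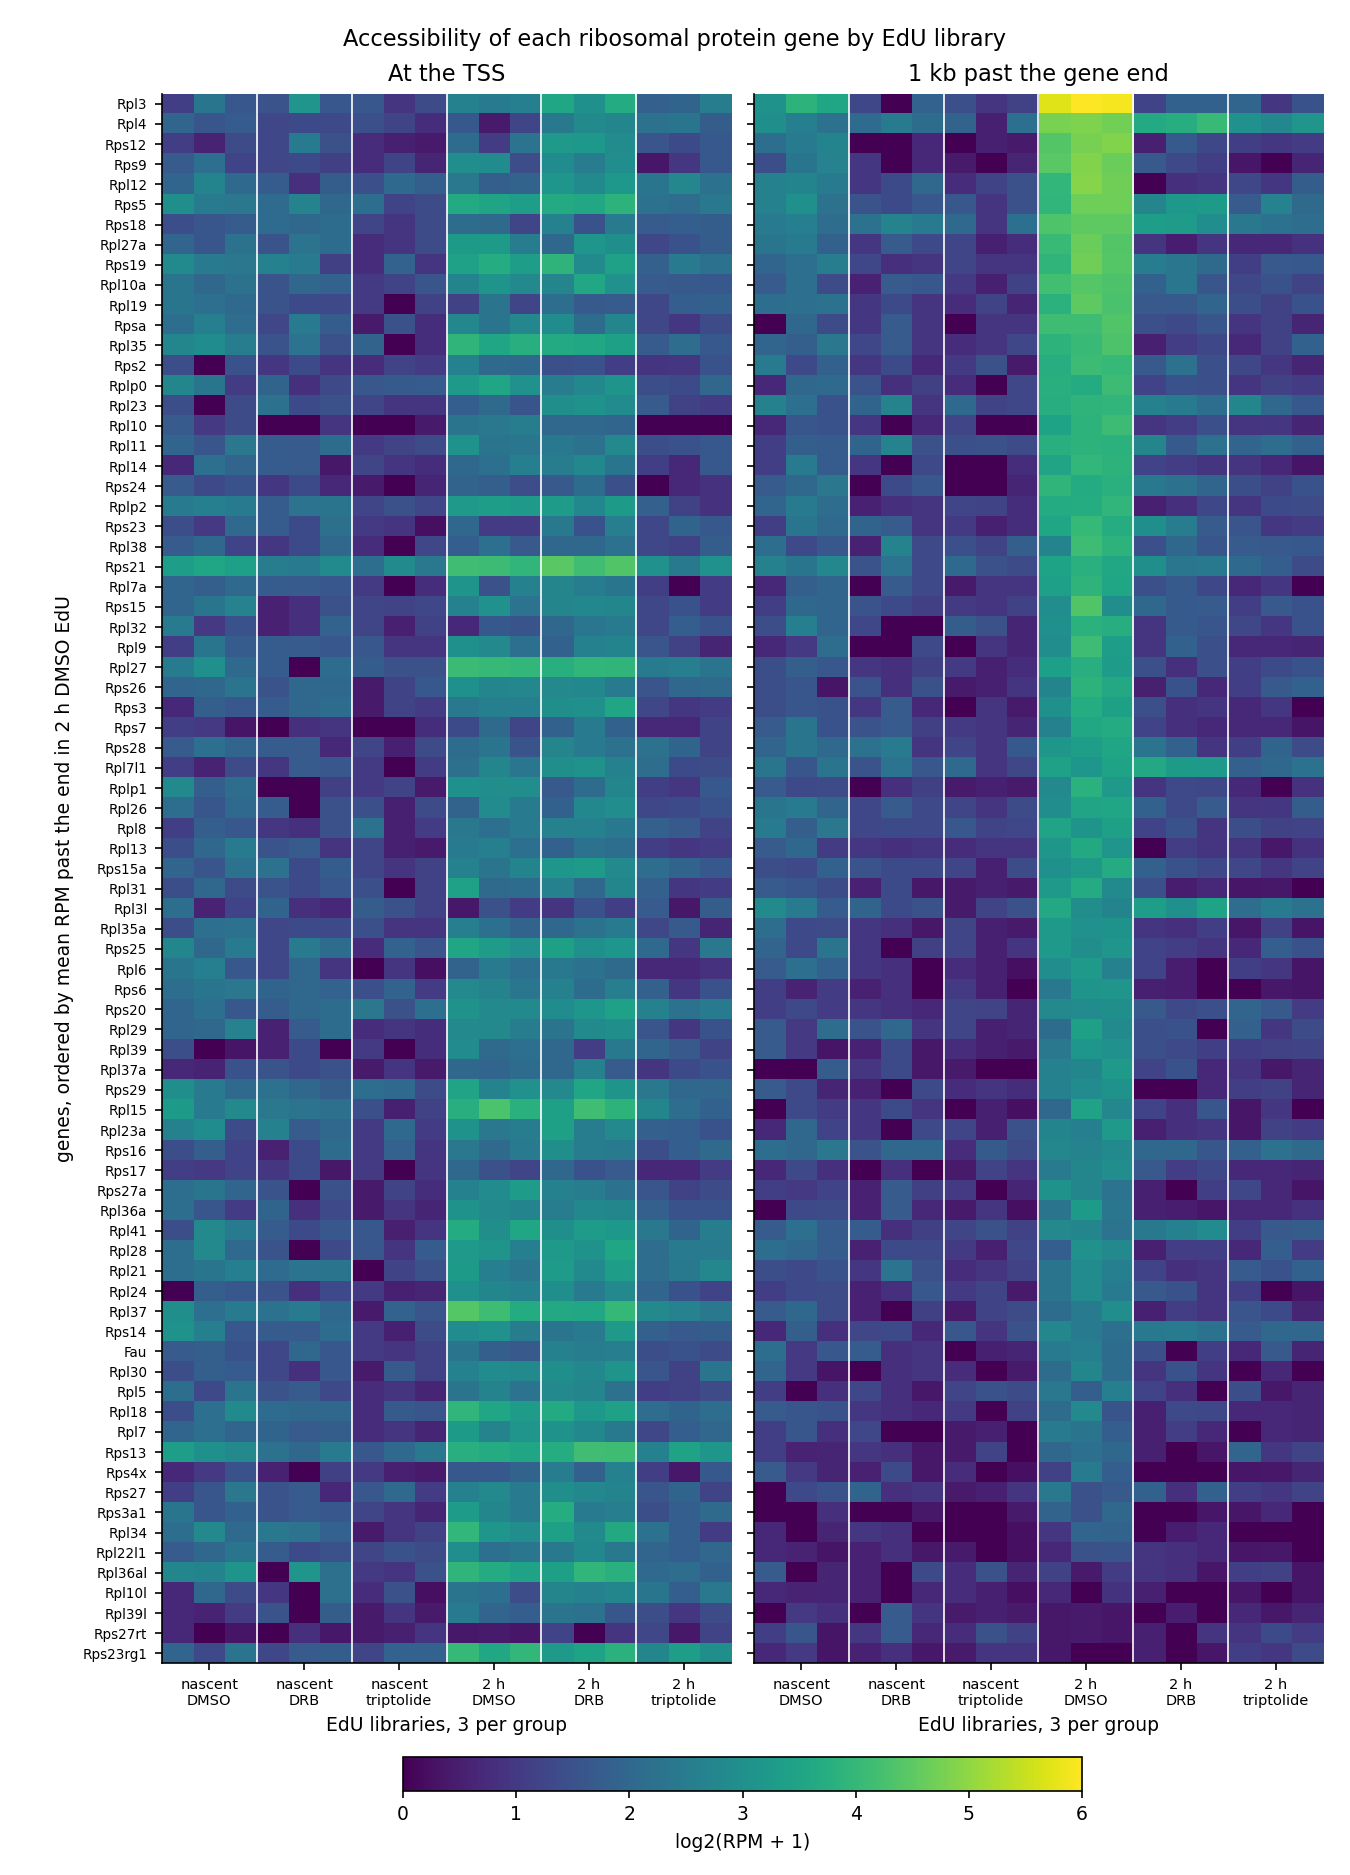
log2(RPM + 1) of 78 of the 81 genes (rows, ordered by the mean RPM past the gene end with DMSO at 2 h) in each EdU library (columns, 3 per group), at the TSS and 1000 bp past the gene end. The 2 h DMSO columns past the end are the brightest, from Rpl3 at 60.3 RPM down to Rps23rg1 at 0.102 RPM, and the DRB columns are bright only at the TSS.

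The peak lists held peaks behind these genes. Of 81 members, 44 (54.3%) had a nascent peak within 1000 bp of the point 1000 bp past the end, against 15.5% of coding genes. The 1 h list had 73 (90.1%; all coding genes 19.9%), the 2 h list 73 (90.1%; 21.5%) and the steady-state list 75 (92.6%; 30.7%). S5P peaks lay there in 66 members (81.5%), against 4.36% of coding genes, 6 of 69 mitochondrial ribosomal protein genes and 1 of 39 proteasome genes. Of the 49 members with no TSS within 2000 bp, 37 (75.5%) had one, against 2.15% of such genes.

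**Figure D5:**
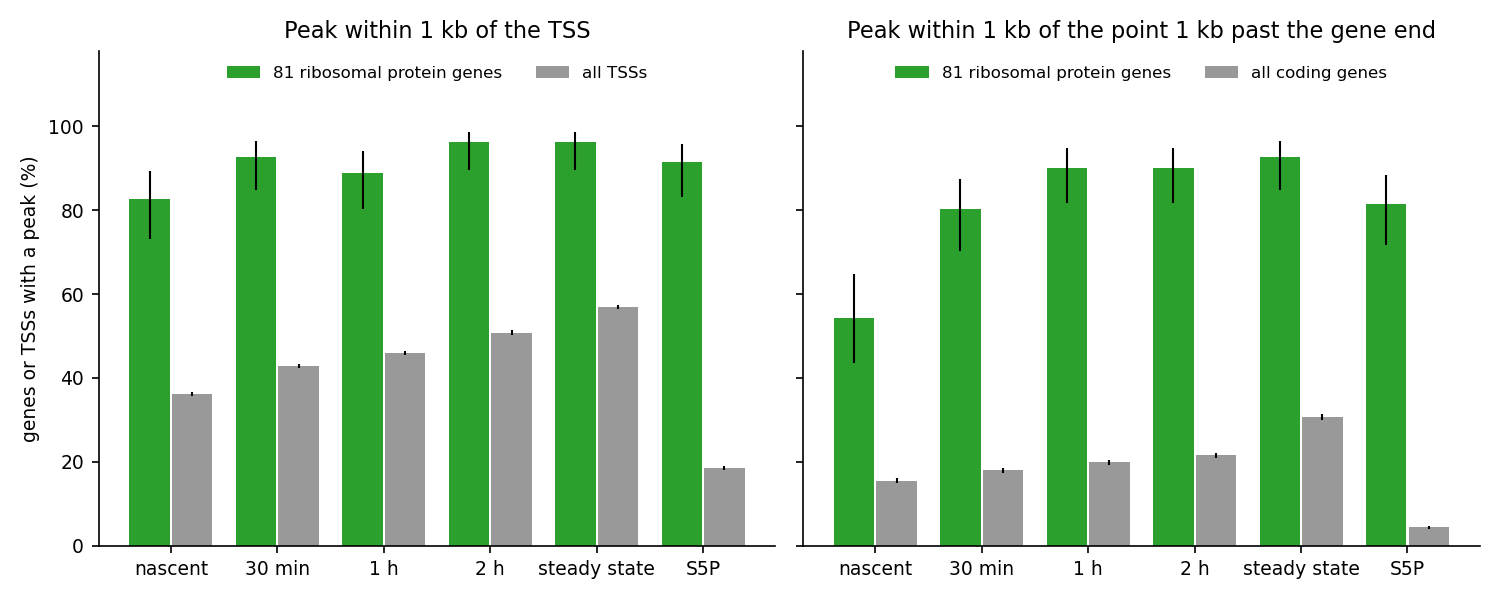
Percentage of the 81 ribosomal protein genes with a listed peak within 1000 bp of the TSS (left) and of the point 1000 bp past the gene end (right), beside all TSSs and all coding genes, for each of the 6 lists; bars on the points are Wilson 95% intervals over genes. The members lie above the comparison set in every list, with 91.4% against 18.5% for S5P at the TSS and 81.5% against 4.36% past the end.

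Other gene lists were set beside the members at the TSS with triptolide. At 2 h, 14 of 20 TOP mRNA or ribosome-bound genes (median -0.89), 17 of 23 ribosome biogenesis genes (-1.30), 36 of 69 mitochondrial ribosomal protein genes (-0.89) and 23 of 39 proteasome genes (-0.96) were lower. These shares stood beside 51 of 81 members and 28.6% of all TSSs. In nascent DNA the counts were 7 of 20, 12 of 23, 17 of 69 and 10 of 39, beside 35 of 81 members and 11.6% of all TSSs. Differences between the lists were not tested. Among members with a promoter sequence, those with CCGGAAG were lower with triptolide at 2 h in 13 of 17 (median -1.11) and those without it in 21 of 38 (-1.05). With TATAA it was 8 of 15 (-0.95) and without it 26 of 40 (-1.11). With the ZBTB33 palindrome it was 3 of 5 (-1.03) and without it 31 of 50 (-1.08). These splits were not tested.

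The drug differences of the EdU and unbound fractions were compared by an interaction. For triptolide, the decrease at the TSS was larger in EdU than in unbound for 12 members in nascent (7.09% of all TSSs) and 22 at 2 h (12.6%), and Rpl4 went the other way at 2 h (0.364%). For DRB it was larger in EdU for Rps15 in nascent (0.397%) and for 0 members at 2 h, with 2 lower and 2 higher at an unadjusted p under 0.05. The triptolide counts fell to 3 and 6 with libraries centred on the median TSS and to 1 and 1 with limma-voom. No share over TSSs with S5P is given for this interaction.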

How the data were processed

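Per the submitters' processing notes, reads were trimmed with Trim Galore 0.4.2 and aligned with Bowtie2 2.2.6.2, and the build is mm10. Other steps, the peak caller and the mapping filter are not stated in the sources used here. The authors deposited log2(RPM + 1) values for 36 inhibitor libraries in 1 kb windows (500 bp step) and for 4 spike-in libraries in 5 kb regions around Ensembl TSSs, and 6 peak lists with positions only. Reads were taken back from the log2 values: 100% came out whole within 0.1, and reads without molecular identifiers are not independent molecules, so intervals cover counting error only.

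Members and gene lists were chosen with earlier results of these data known. Each TSS took its nearest window. Limma 3.58.1 (trend, pseudocount 1 as deposited; R 4.3.3 with its package data.table, version 1.17.8) was run on windows with a value over 0 in 3 or more libraries (spike-in: 2 or more) in a fit over all groups of a fraction without a replicate block, with Benjamini-Hochberg adjustment over all windows, for 21 comparisons. Each drug, time and fraction comparison used the labels' groups. The fit was tested on simulated data. Tables were made in Python 3.11.15 with pandas 2.3.3, numpy 2.4.6 and scipy 1.17.1, and figures with matplotlib 3.10.9. Names in the text are the 5 members with the largest difference among those called, a panel of 18 genes of known separate roles and the paralogues with their counterparts; others were named because a count was 5 or fewer or because they were singled out after their values were seen. Of 81 members, 3 are counted but not reported here by name. Gene ends and promoters came from RefSeq tables (GRCm38.p6). Comparisons past the gene end, those of gene end minus TSS and the pairing by other RefSeq starts were chosen after seeing the data. Other alternatives were another pseudocount, no filter, other scalings, limma-voom, a replicate block and each library left out. The spike-in enhancer table was not used, since it holds no member TSS.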

Additional observations from a re-analysis of the deposited data

Results flagged for a closer look

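For some ribosomal protein TSSs the triptolide difference was called larger in the EdU fraction than in the unbound fraction by a test of the difference itself (limma interaction, Benjamini-Hochberg adjusted p under 0.05). In nascent libraries 12 members were called lower in EdU, against 7.09% of all TSSs. The largest values there were at Rpl35 (-1.72), Rpl36al (-1.67), Rpl21 (-1.65), Rpl15 (-1.61) and Rpl6 (-1.58). At 2 h 22 members were called lower and 1, Rpl4, higher, against 12.6% and 0.364% of all TSSs. No share over TSSs with S5P is given for this test. The largest 2 h values were at Rpl10 (-2.10), Rpl24 (-1.86), Rpl35 (-1.55), Rpl7a (-1.46) and Rps15 (-1.35). Rpl10 illustrates it: its triptolide libraries at 2 h held no read in EdU and 2.53, 2.02 and 2.70 RPM in the unbound fraction, beside 3.50, 3.24 and 2.98 RPM with DMSO. The triptolide counts depended on the scaling: they were 3 and 6 with libraries centred on the median TSS and 1 and 1 with limma-voom on recovered reads. The nascent count was 5 without nascent DMSO unbound replicate 3, 7 without replicate 1 of that group and 6 without nascent triptolide unbound replicate 1 or 2. The 2 h count was 12 without 2 h DMSO EdU replicate 1 or 2 h DMSO unbound replicate 3, and 13 without 2 h triptolide EdU replicate 2 or 2 h triptolide unbound replicate 1. For DRB in nascent libraries 1 member was called, Rps15 (-1.43), against 0.397% of all TSSs, and 0 were with either of those scalings. EdU libraries had fewer reads than unbound libraries, and the part of depth in these differences was not tested.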

How the results depend on the processing

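No named member changed sign under the alternatives run for it. The members' median did so with limma-voom for the chase in DMSO (0.75 to -0.08, 4 called higher and 4 lower) and for the change of the triptolide difference over the chase (-0.23 to 0.15), and under at least 1 alternative for 3 DRB comparisons whose median lay between -0.08 and 0.08 as reported. Leaving out 1 library in turn gave, in the EdU fraction at the TSS, 23 to 31 members lower for triptolide and 2 to 8 for DRB against DMSO in nascent DNA, 42 to 50 and 0 to 1 at 2 h, 1 to 5 and 43 to 47 for triptolide against DRB (nascent, 2 h), and 22 to 34, 56 to 63 and 6 to 12 higher over the chase with DMSO, DRB and triptolide. In the unbound fraction it gave 4 to 9 (triptolide) and 0 to 1 (DRB) in nascent and 19 to 30 and 1 to 2 at 2 h. For EdU minus unbound it gave 5 to 12 and 12 to 20 (triptolide, nascent and 2 h) and 0 to 6 (DRB, nascent). For the spike-in it gave 0 to 78. Past the gene end it gave 5 to 10 (triptolide) and 3 to 11 (DRB) in nascent EdU, 64 to 69 and 54 to 61 at 2 h, and 54 to 62, 10 to 13 and 1 to 2 over the chase. Unbound ranges there were 70 to 72 and 60 to 69 in nascent and 70 to 73 and 66 to 70 at 2 h. For gene end minus TSS they were 27 to 45 (DRB), 23 to 31 (triptolide), 64 to 67 (DRB, unbound) and 17 to 31 (chase).

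At the TSS, centring on the median TSS gave 18 (triptolide, nascent), 32 (triptolide, 2 h), 0 and 37 (triptolide against DRB), 11 and 5 (chase with DMSO and triptolide), 17 (triptolide, nascent unbound), and 3, 6 and 0 for EdU minus unbound (triptolide nascent, 2 h, DRB nascent). Scaling to background windows gave 0 (triptolide against DRB, nascent), 68 and 40 (chase with DMSO and triptolide), 47 (triptolide, 2 h unbound), 1 for the DRB interaction over the chase, and 5 and 0 for EdU minus unbound in nascent DNA. Limma-voom on recovered reads gave 2, 0, 12, 0 and 15 for the drug comparisons in EdU (triptolide and DRB nascent, triptolide 2 h, triptolide against DRB nascent and 2 h), 4, 6 and 0 for the chase, and 1, 1 and 0 for EdU minus unbound. It also moved the median of all TSSs, by construction of its scaling factors. Without a filter the counts were 2 (DRB, nascent), 1 (triptolide against DRB, nascent), 7 and 0 (triptolide and DRB, nascent unbound), 1 (DRB, 2 h unbound) and 0 (spike-in). A pseudocount of 0.5 gave 2 for EdU minus unbound with DRB, and members with no other start in the window gave 1 for DRB at 2 h unbound. The cause of these moves was not tested.

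Past the end, limma-voom gave 5 and 3 in nascent EdU (triptolide, DRB) and 7 and 1 for the chase with DRB and triptolide. Centring gave 20 for the chase with DRB. A window 2000 bp past the end gave 8 and 2 in nascent EdU, 43 and 28 at 2 h (triptolide, DRB), 35 and 1 for the chase with DMSO and triptolide and 39 for DRB in nascent unbound. The window at the end gave 32, 7 and 1 for the chase (DMSO, DRB, triptolide) and 35 for DRB in nascent unbound. Over the 49 members with no TSS nearby, a smaller set by construction, the counts were 5 and 4 in nascent EdU, 41 and 43 at 2 h, 40, 3 and 0 over the chase, and 45, 43, 46 and 45 in the unbound fraction.

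Same-number correlations of deviations reached at most 0.05 in EdU libraries, 0.17 in unbound libraries and 0.13 between EdU and unbound libraries of a group. Most pairs were under 0.1, but most were above 0, so a weak pairing by replicate number may be present. The main fit did not use it. A replicate block left 1 spike-in call of 37 and moved no other count by more than 1.5 times. With EdU and unbound libraries of the same group and number taken as pairs, an alternative chosen after seeing the data, the EdU minus unbound counts were 13 and 24 for triptolide (nascent, 2 h) and 2 and 0 for DRB. Of the alternatives for named members, 760 did not change the call, 120 fell short of the threshold and 6 were classed as moved. Taking the median over members in place of the mean moved the TSS level by more than its SD in all 6 EdU groups. A typical EdU member window held 2 to 20 reads, which limits the precision of single calls.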
